A study of Macaca mulatta with 2 samples.

Results

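Cadherins are calcium-dependent adhesion proteins, and their genes on the arrays were taken by name: every probe that was no control and whose gene name was CDH with a number, PCDH with letters or numbers, DSG1 to DSG4 or DSC1 to DSC3. This gave 86 genes with 114 probes, of 31395 genes with 41000 probes on the array. The family was selected on the pubertal-over-infant ratios of these same arrays, in which PCDH17 stood among the largest differences shared by both. The ratios below are therefore a description and are not tested.

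The samples were primary cultures of Sertoli cells taken from rhesus macaque (Macaca mulatta) testes. Sertoli cells are the somatic cells that line the seminiferous tubule and carry the germ cells. The 2 pubertal cultures came from males aged 18 to 22 months, pre-pubertal until puberty was induced with gonadotropin-releasing hormone (GnRH) through an implanted catheter. GnRH was given at 0.15 µg/min for 2 min at intervals of 3 h over 4 to 5 weeks. The 2 infant cultures were made from animals younger than 3 months, for which the labels name no GnRH. All 4 cultures were kept for 24 h with testosterone (100 nM) and follicle-stimulating hormone (FSH, 5 ng/ml), so no culture without hormones was compared. The GnRH course goes together with age, and the parts of age and of GnRH cannot be told apart. Array 1 carried 1 pubertal culture in the dye Cy5 and 1 infant culture in Cy3. Array 2 carried the other pair with the dyes swapped.

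Classical cadherins such as CDH1 and CDH2 join neighbouring cells through their outer repeats and hold the actin cytoskeleton through catenins. Desmogleins (DSG) and desmocollins (DSC) are the cadherins of desmosomes, which are tied to intermediate filaments. Protocadherins adhere more weakly and are best known from neurons, where the clustered PCDHA, PCDHB and PCDHG genes give single cells different surface identities, while delta protocadherins act in cell sorting and migration. In the testis, N-cadherin (CDH2) sits in the junctions between Sertoli cells and between Sertoli and germ cells, and these junctions are remodelled at puberty when the blood-testis barrier forms.

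The probes were 60 bases long and of a human design, with coordinates on the human build hg17. The probe of PCDH17 is shown because this gene differed most, and it lay at chr13:57197329-57197388 on the plus strand. No other cadherin-family probe shared more than 27 of its bases in an ungapped alignment.
PCDH17: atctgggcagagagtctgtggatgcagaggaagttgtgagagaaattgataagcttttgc

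The clustered PCDHB genes are near copies of each other, and several of their probes lay in the same stretch of the gene, so that 1 RNA may bind more than 1 of them. The next lines show this for 4 probes, all on the plus strand. PCDHB13 lay at chr5:140576162-140576221, PCDHB2 at chr5:140456848-140456907, PCDHB7 at chr5:140534872-140534931 and PCDHB15 at chr5:140607614-140607673. Capitals mark bases that differ from the PCDHB13 probe in an ungapped alignment or hang over its end.
PCDHB13: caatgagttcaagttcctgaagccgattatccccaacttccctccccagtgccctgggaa
PCDHB2: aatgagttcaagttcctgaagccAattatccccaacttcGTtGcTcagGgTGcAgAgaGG
PCDHB7: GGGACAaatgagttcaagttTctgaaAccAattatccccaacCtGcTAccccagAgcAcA
PCDHB15: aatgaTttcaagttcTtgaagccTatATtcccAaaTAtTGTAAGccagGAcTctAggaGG

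With PCDHB13, the PCDHB2 probe matched at 48 of 59 aligned bases, the PCDHB7 probe at 44 of 55 and the PCDHB15 probe at 40 of 59. A second set of 3 probes covered a neighbouring stretch. PCDHB11 lay at chr5:140561760-140561819, PCDHB8 at chr5:140540034-140540093 and PCDHB12 at chr5:140570902-140570961, all on the plus strand, and capitals mark bases that differ from the PCDHB11 probe or hang over its end.
PCDHB11: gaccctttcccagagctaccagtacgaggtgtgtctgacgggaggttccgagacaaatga
PCDHB8: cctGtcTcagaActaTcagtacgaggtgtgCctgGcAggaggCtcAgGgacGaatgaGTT
PCDHB12: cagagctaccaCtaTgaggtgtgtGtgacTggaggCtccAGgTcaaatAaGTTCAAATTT

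The PCDHB8 probe matched PCDHB11 at 46 of 57 aligned bases and the PCDHB12 probe at 41 of 50. These values are therefore signals of probes within a family, and the split among near copies is uncertain. No macaque sequence was compared with the human probes here, and only 57 of the 86 gene symbols stood in the macaque RefSeq gene table (assembly T2T-MMU8v2.0).

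Across the whole array, 74.8% and 62.6% of spots were well above background in the pubertal cultures of arrays 1 and 2, and 60.9% and 71.5% in the infant cultures. The Cy5 channel had the higher share on both arrays. A gene was kept for comparison where a probe was well above background in both pubertal cultures or in both infant cultures, which left 19611 genes. Sertoli markers were detected in both stages, among them WT1, a transcription factor of the Sertoli lineage, at normalised intensities of 3064 and 2422 in pubertal cultures and 2297 and 1631 in infant cultures (arrays 1 and 2 in this order, here and below). Normalised intensity is the spot brightness of 1 channel after background correction and normalization, with an offset of 50 added, so that no probe comes close to 0. FSHR, the FSH receptor, was dim, at 94.0 and 92.3 in pubertal and 111 and 104 in infant cultures. In limma with Benjamini-Hochberg adjustment, 0 of the 19611 genes passed an adjusted p of 0.05, and 792 genes (4.04%) had an unadjusted p under it. The fit rests on 2 array pairs and 1 residual degree of freedom.

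Of the 114 cadherin-family probes, 75 and 54 were well above background in the pubertal cultures of arrays 1 and 2, and 48 and 65 in the infant cultures. In all 4 channels 45 probes passed, and 39 passed in none. Of the 86 genes, 50 were kept. By family these were 3 of 5 type I classical cadherins, 7 of 13 type II classical cadherins, 3 of 5 other CDH genes, 1 of 4 desmogleins and 2 of 3 desmocollins. Among protocadherins 28 of 42 clustered genes, 4 of 5 delta-1 genes, 2 of 5 delta-2 genes and 0 of 4 others were kept. The other 36 genes include the kidney and gut cadherins CDH16 and CDH17, the skin desmosomal genes DSG1 and DSC1 and the vascular gene PCDH12. In 9 probes the filter was met by the pubertal channels alone and in 2 by the infant channels alone. Passing in that way favours a lean towards the group that let the probe pass.

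Among the 50 kept genes, 27 (54%) were higher in pubertal cultures on both arrays, 6 (12%) were lower on both and 17 had opposite signs on the 2 arrays. Over all 19611 kept genes, 23.5% were higher on both arrays and 21.9% lower on both, while 10716 had opposite signs. The median log2 ratio of the 50 genes was 0.29 on array 1 and 0.28 on array 2, against 0.05 and -0.03 over all kept genes. At least a 2-fold difference in the same direction on both arrays was found for 1 of the 50 genes, PCDH17, higher in pubertal cultures, against 0.342% of all genes. A 2-fold lower level on both arrays was found for 0 of the 50, against 0.352% of all genes. Limma's adjusted threshold was passed by 0 of the 50 genes and by 0% of all genes. In 40 of the 50 genes all 4 channels were well above background. Of these 19 were higher on both arrays, 5 lower on both and 16 opposite, against 22.5% higher and 21.9% lower among all genes detected that way.

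Set out by culture, both pubertal levels lay above both infant levels in 25 of the 50 genes and below both in 3, and the stages overlapped in the other 22. Among all kept genes the shares were 15.7% above and 14.1% below. Of the 25, 8 were dim in an infant culture and had passed the filter through the pubertal channels alone. Among the 40 genes detected in all 4 channels, 17 were above and 3 below, against 14.9% and 14.2% of all genes detected that way. The 25 genes comprise 15 PCDHB genes, 4 PCDHG genes, PCDH17, PCDH11Y, CDH7, CDH13, CDH18 and DSG2. The 3 genes with lower pubertal levels were CDH11, DSC3 and PCDH1.

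**Figure D1:**
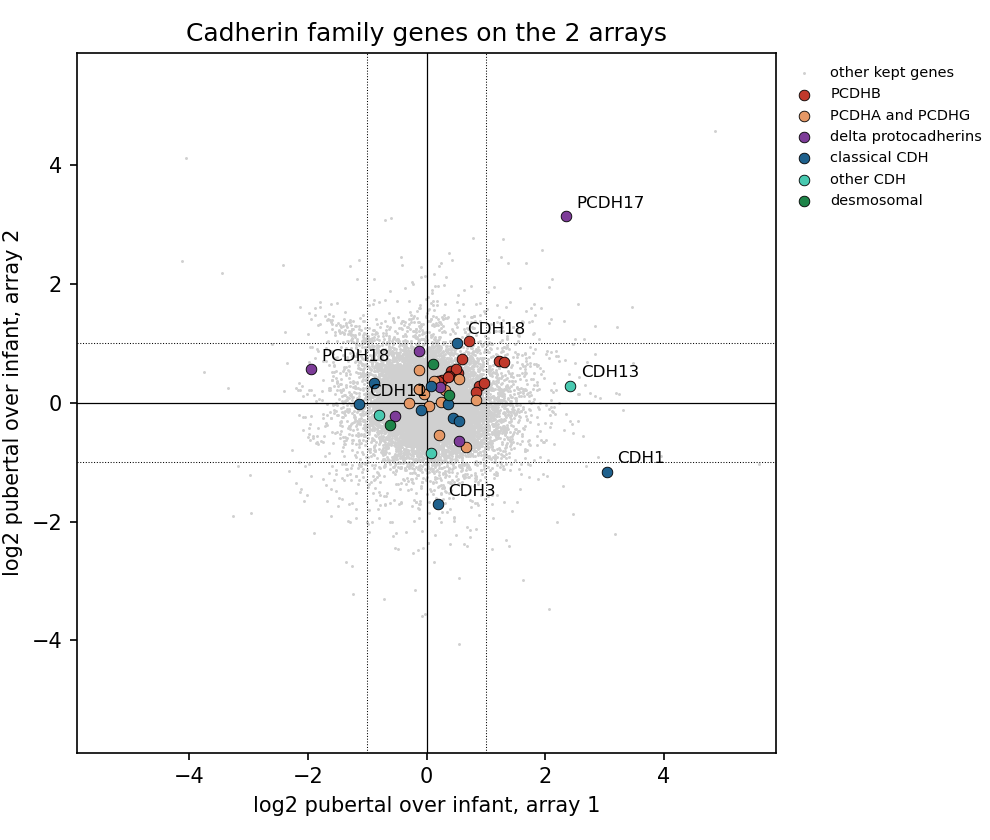
Log2 ratio of pubertal over infant on array 1 (horizontal) and array 2 (vertical) for the 50 kept cadherin-family genes (coloured by family) and all other kept genes (grey), with dotted lines at 1 and -1. PCDH17 stands far out in the upper right at 2.35 and 3.14, the 15 PCDHB genes (red) all lie above 0 on both axes, and CDH1 lies in the lower right.

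PCDH17, a delta-2 protocadherin known from axon growth and synapses in neurons, was the cadherin-family gene that differed most between the stages on both arrays. Its normalised intensity was 1225 and 1752 in pubertal cultures, against 240.1 and 199 in infant cultures. Both pubertal cultures were far above both infant cultures, and the 4 channels were all well above background. The log2 ratio was 2.35 on array 1 and 3.14 on array 2, which averages 2.74 ± 0.30 (n = 2 array pairs, SE moderated by limma over all genes) and corresponds to 6.70-fold. By the smaller of its 2 ratios PCDH17 ranked 2 among the 19611 kept genes, behind CST9L. Without the offset of 50 that damps dim signals its ratios were 2.78 and 3.47, and from the scanner software's own processed signals 3.17 and 3.45. The authors' deposited table lists 3.16 and 3.45 for the same probe. In these bulk cultures, more cells that express a gene and more RNA per cell cannot be told apart, here and for each gene below.

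No other delta-2 gene was at least 2-fold higher in pubertal cultures on both arrays, and of these only PCDH18 was kept. PCDH18 had 94.95 and 194.5 in pubertal cultures and 365.4 and 130.9 in infant cultures, so the stages overlapped and the log2 ratios were -1.94 and 0.57. The infant culture of array 1 was the highest of the 4. PCDH8, which regulates cell movement in early embryos, was above background in 1 pubertal culture and in no infant culture. Its intensities were 147 and 79.3 in pubertal and 79.0 and 67.3 in infant cultures. The log2 ratios of 0.90 and 0.24 both leaned towards pubertal, but the gene was too dim to be kept. PCDH10 was above background in 1 pubertal culture by 1 of its probes, and PCDH19 in 1 culture of each stage, so neither was kept.

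The delta-2 protocadherins bind the WAVE actin-regulating complex through a motif in their cytoplasmic tail. Of 8 listed WAVE subunits and partners, 8 were kept, of which 1 was higher on both arrays, 3 were lower on both and 4 were opposite. Over all kept genes 23.5% were higher on both arrays and 21.9% lower on both. CYFIP1, a core subunit, had intensities of 3012 and 3165 in pubertal cultures, against 1957 and 2134 in infant cultures, and log2 ratios of 0.62 and 0.57. Its paralogue CYFIP2 had 528 and 421 in pubertal and 622 and 541 in infant cultures (log2 ratios -0.24 and -0.36), and ABI2, the adaptor subunit, had ratios of -0.30 and -0.29. None of the 8 was 2-fold apart in 1 direction on both arrays.

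**Figure D2:**
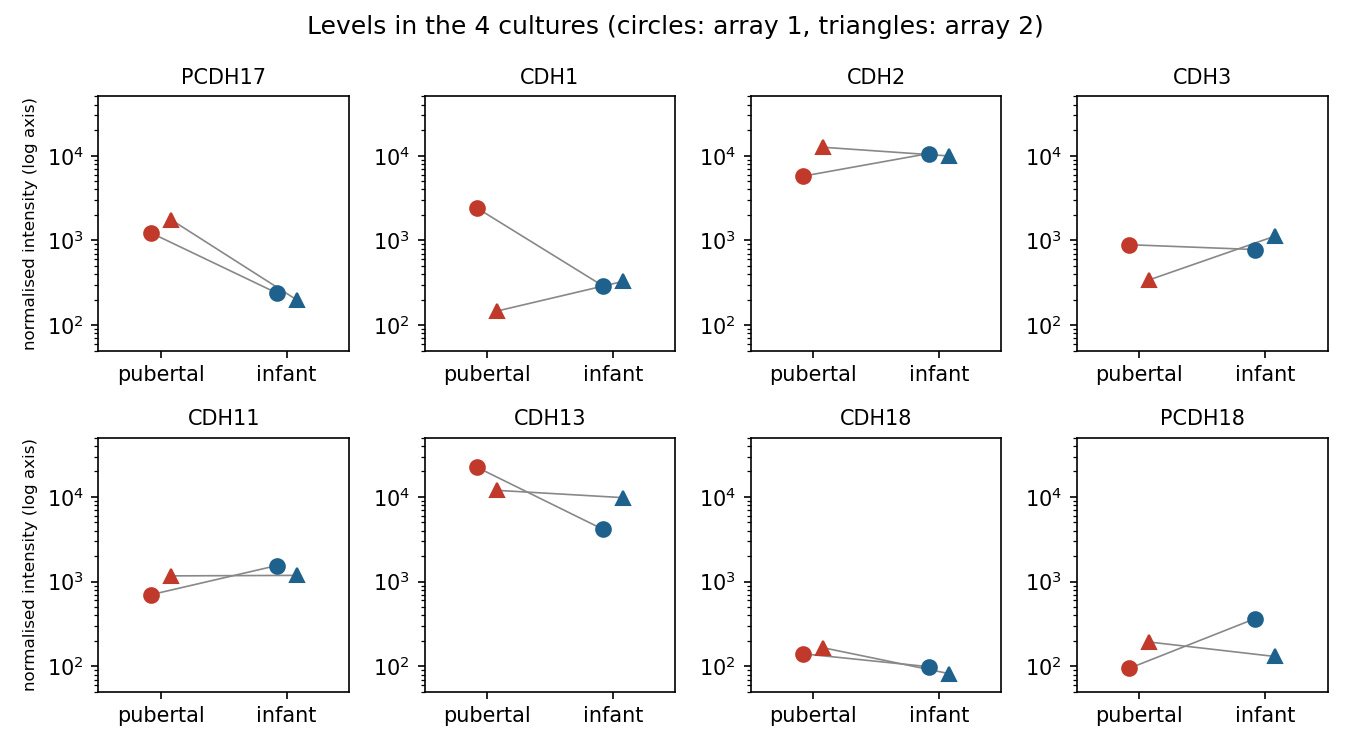
Normalised intensity (log axis) of 8 cadherin-family genes in the 4 cultures, pubertal on the left and infant on the right of each panel, with circles for array 1, triangles for array 2 and grey lines joining the cultures of 1 array. PCDH17 (1225 and 1752 pubertal, 240.1 and 199 infant) separates the stages, while for CDH1, CDH2, CDH3 and PCDH18 the lines of the 2 arrays run in opposite directions.

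The PCDHB cluster showed the most even pattern of the family. Its genes lie side by side on human chromosome 5, each a single exon. Most, but not all, encode clustered protocadherins, which lack the shared cytoplasmic tail of the PCDHA and PCDHG proteins. The counts below include pseudogenes. Of 18 PCDHB genes on the array 15 were kept, and on both arrays 15 of these 15 were higher in the pubertal culture, with median log2 ratios of 0.53 and 0.45. The choice to look at this cluster by itself was made after its values were seen. In 15 of 15 both pubertal levels also exceeded both infant levels, against 15.7% of all kept genes. However, 5 of the 15 passed the filter through the pubertal channels alone, which favours this outcome and raises the count. Of the 10 PCDHB genes detected in all 4 channels 10 were above, against 14.9% of all genes detected that way. Single log2 ratios were 0.20 to 1.31 on array 1 and 0.18 to 1.04 on array 2, and these sizes depend on the offset of 50. With the scanner software's processed signals, the 10 genes detected in all 4 channels had 0.29 to 1.94 on array 1 and 0.23 to 1.44 on array 2, and with offset 0 they had 0.38 to 1.83 and 0.23 to 1.40.

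PCDHB5 had intensities of 384 and 252 in pubertal cultures, against 155 and 157 in infant cultures, with log2 ratios of 1.31 and 0.68 (mean 1.00 ± 0.28 moderated SE, n = 2). PCDHB11 had 2016 and 1719 in pubertal cultures, against 867 and 1056 in infant cultures, with ratios of 1.22 and 0.70. PCDHB10 had 302 and 300.2 in pubertal cultures, against 184 and 146 in infant cultures, with ratios of 0.72 and 1.04. In these 3 genes the lower pubertal culture stood well clear of the higher infant culture. PCDHB8 had 248 and 258 in pubertal cultures, against 165 and 156 in infant cultures. PCDHB13 had 696 and 556 in pubertal cultures, against 375 and 456 in infant cultures. PCDHB18 had 484 and 378 in pubertal cultures, against 272 and 333 in infant cultures. For PCDHB13 and PCDHB18 the gap was smaller on array 2, with log2 ratios of 0.28 and 0.18. PCDHB14 had 249.5 and 176 in pubertal cultures, against 128 and 139 in infant cultures. PCDHB15 had 148 and 197 in pubertal cultures, against 111 and 136 in infant cultures. The dimmer genes PCDHB7 (0.36 and 0.44) and PCDHB9 (0.20 and 0.37) leaned the same way. These 10 genes were well above background in all 4 channels, and their median ratios were 0.78 and 0.49.

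The other 5 kept PCDHB genes passed the filter through the pubertal channels alone, so the filter favoured their direction and their signs add nothing to the count. They were PCDHB2 (log2 ratios 0.49 and 0.57), PCDHB17 (0.53 and 0.51), PCDHB4 (0.26 and 0.39), PCDHB6 (0.37 and 0.45) and PCDHB12 (0.22 and 0.35). The ratios of these dim probes moved most with the correction: with processed signals they were 3.30 and 2.07 for PCDHB17, 2.27 and 3.07 for PCDHB6 and 1.78 and 1.45 for PCDHB2. PCDHB6 and PCDHB12 were not well above background in either infant culture, and their pubertal means of 86.8 and 94.1 were at least 1.26-fold and 1.22-fold above the bound set by the infant channels. Among the 3 genes that were not kept, the ratios were 0.02 and 0.02 for PCDHB1 and -0.05 and 0.10 for PCDHB19P, a pseudogene by its name. PCDHB16 leaned the other way on array 1, with -0.33 and -0.01, but was above background in no channel. Without any filter on dim probes, 16 of the 18 genes were higher on both arrays by their brightest probe. Second probes of PCDHB2 (0.10 and 0.06), PCDHB9 (0.19 and -0.05) and PCDHB12 (-0.12 and 0.27) were above background in no channel.

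For comparison, 13332 kept genes had mean intensities within the range of the kept PCDHB genes, and 23.6% of them were higher on both arrays and 22% lower. The PCDHB genes are not 15 separate measurements where their probes are alike. Of the 10 genes detected in all 4 channels, 5 had probes that shared fewer than 30 bases with the probe of any other PCDHB gene, and 5 of these 5 were higher on both arrays, at 0.20 to 1.31 on array 1 and 0.18 to 1.04 on array 2. The other 5 shared 30 bases or more, and 5 of these 5 were higher, at 0.36 to 1.22 and 0.28 to 0.73. Probes were compared only with each other, not with whole transcripts. A probe sharing few bases with other probes may therefore still bind RNA of another PCDHB gene, and these 5 cannot be taken as separate measurements. The RNA still came from the same 4 cultures throughout. With each array centred on its median in place of the loess fit, the median of all kept genes stood at 0.63 on array 1 and -0.42 on array 2, and 11 of the 15 genes were higher on both. PCDHB12 (-0.02) and PCDHB6 (-0.10) then turned on array 1, and PCDHB13 (-0.20) and PCDHB18 (-0.24) on array 2. In the authors' deposited table, 12 PCDHB probes were listed, 9 of them with a value for both arrays, and 9 of these 9 were above 0 on both. PCDHB5 has 1.94 and 1.12 in the authors' deposited table.

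**Figure D3:**
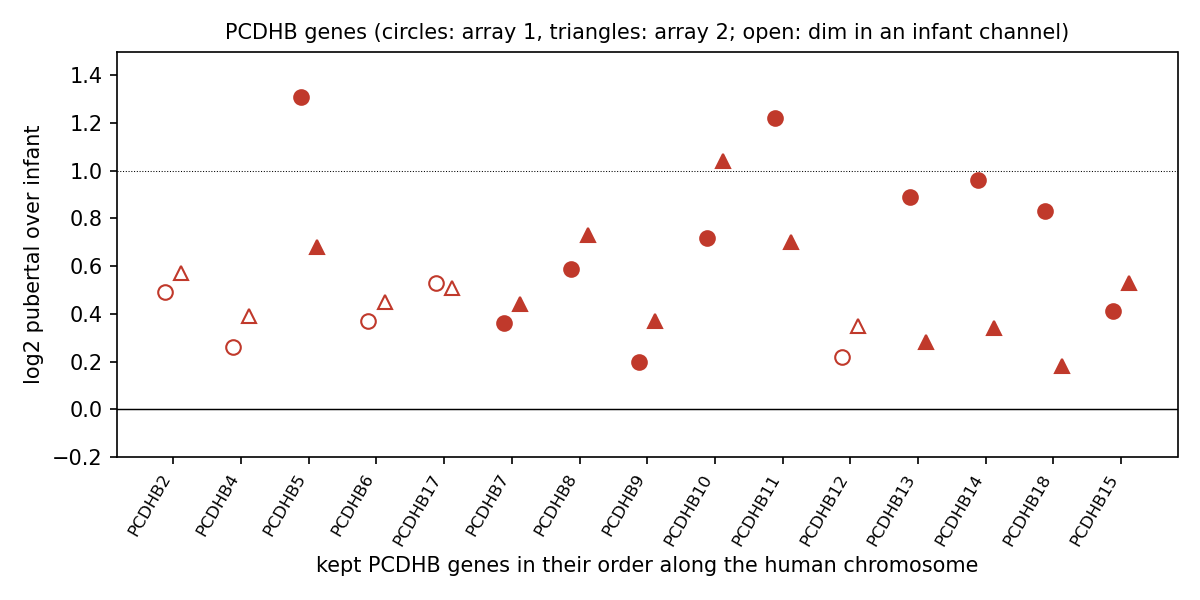
Log2 ratio of pubertal over infant for the 15 kept PCDHB genes in their order along the human chromosome, with circles for array 1 and triangles for array 2. Filled symbols are genes well above background in all 4 channels and open symbols those dim in an infant channel, and every point lies above 0, with PCDHB5 at 1.31 and 0.68.

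The neighbouring PCDHA and PCDHG clusters were less even. Of 7 PCDHA genes 4 were kept, of which 1 was higher on both arrays and 3 were opposite. PCDHA5 and PCDHA1, whose probes matched at 46 of 47 aligned bases, had ratios of 0.24 and 0.02, and of 0.04 and -0.05. PCDHA11 had 303 and 256 in pubertal cultures and 191 and 428 in infant cultures, so the stages overlapped, with ratios of 0.67 and -0.74. Its probe, at chr5:140371080-140371139, lay beyond the other 6 PCDHA probes and carries 4 RefSeq accessions. The last exons of the PCDHA cluster are shared by all its transcripts, and the files do not say which exon a probe lies in.

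Of 17 PCDHG genes 9 were kept, of which 4 were higher on both arrays, 1 was lower on both and 4 were opposite. PCDHGA2 had 279 and 266 in pubertal cultures, against 224 and 228 in infant cultures, and ratios of 0.31 and 0.22. PCDHGB1 had 122 and 98.7 in pubertal cultures, against 83.6 and 74.8 in infant cultures, and ratios of 0.55 and 0.40, but it passed the filter through the pubertal channels alone. PCDHGA8 was bright, at 19261 and 16848 in pubertal cultures and 10821 and 16381 in infant cultures, and its ratio of 0.83 on array 1 was 0.04 on array 2. That probe, at chr5:140872578-140872637, lay beyond the other 18 PCDHG probes and carries 4 RefSeq accessions. The second PCDHGA8 probe, at chr5:140755052-140755111 among the other PCDHG probes, was above background in no channel. Which PCDHG transcripts the bright probe binds is not known here.

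Of the delta-1 protocadherins, PCDH1, found in epithelial and endothelial junctions, had 289 and 419 in pubertal cultures and 421 and 489 in infant cultures. The higher pubertal culture lay just under the lower infant one, and the ratios were -0.54 and -0.22. A second PCDH1 probe gave 0.02 and -0.58. PCDH11Y had 188 and 173 in pubertal cultures and 160.3 and 144 in infant cultures (0.23 and 0.27), while its second kept probe gave -0.39 and 0.46. PCDH11X and PCDH11Y are near copies in humans, PCDH11Y is not among the symbols of the macaque table, and which macaque RNA this probe binds is not known here. PCDH7 (0.55 and -0.65) and PCDH9 (-0.13 and 0.88) had opposite signs on the 2 arrays.

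The type I classical cadherins, which form adherens junctions, had opposite signs on the 2 arrays in 3 of 3 kept genes. Opposite signs were common over all kept genes too, in 10716 of 19611. CDH1 (E-cadherin) had 2401 in the pubertal culture of array 1 and 147 in that of array 2, against 292 and 328 in the infant cultures. One pubertal culture was thus the highest of the 4 and the other the lowest, and the log2 ratios of 3.04 and -1.16 made CDH1 the cadherin-family gene with at least 2-fold differences in opposite directions, as were 0.795% of all kept genes. CDH3 (P-cadherin) had 890.4 and 343 in pubertal cultures and 781 and 1123 in infant cultures, again with the pubertal culture of array 2 the lowest, and ratios of 0.19 and -1.71. CDH2 (N-cadherin) had 5747 and 12577 in pubertal cultures and 10603 and 9940.1 in infant cultures, with ratios of -0.88 and 0.34. The 2 pubertal cultures thus bracketed both infant cultures for CDH2, and no difference between stages beyond their spread was seen. With median centring the CDH2 ratios were 0.28 and -0.45, so the sign turned on both arrays. CDH4 and CDH15 were not kept.

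Among the 17 genes of opposite sign, 10 were brighter in Cy5 on both arrays, CDH1 and CDH3 among them, and 7 brighter in Cy3, CDH2 and PCDH18 among them. With 1 array in each dye order, a dye effect and a difference between cultures of 1 stage cannot be told apart for these genes.

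Type II classical cadherins, often found in mesenchyme, vessels and neurons, were mixed, with 2 of 7 higher on both arrays, 2 lower on both and 3 opposite. CDH18, known from the nervous system, had 141 and 166 in pubertal cultures, against 99.2 and 82.3 in infant cultures. Both pubertal cultures were above both infant cultures, with log2 ratios of 0.51 and 1.01 (mean 0.76 ± 0.26 moderated SE, n = 2). The signal was dim, and from the scanner software's processed signals the ratios were 1.43 and 2.20. The authors' deposited table gives 1.42 and 2.20. CDH11, the cadherin of mesenchymal cells, had 703 and 1171 in pubertal cultures and 1548 and 1187 in infant cultures. Its ratio was -1.14 on array 1 and -0.02 on array 2 with the loess fit, and -0.30 and -0.60 with median centring. Which pair carried the lower level thus depended on the normalization. The authors' deposited table gives -1.38 and 0.09 for CDH11, with opposite signs. CDH24 was close to even, with 1037 and 849 in pubertal cultures and 1111 and 922 in infant cultures. CDH22 (0.55 and -0.30), CDH10 (0.45 and -0.25) and CDH6 (0.36 and -0.02) had opposite signs, and CDH7 (0.07 and 0.29) was dim. CDH5, the endothelial VE-cadherin, had 79.3 and 72.5 in pubertal cultures and 81.3 and 73.9 in infant cultures, above background in only 1 culture of each stage.

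Among the other CDH genes, CDH13 (T-cadherin), which is held in the membrane by a lipid anchor and binds adiponectin, had 22331 and 11967 in pubertal cultures, against 4168 and 9821 in infant cultures. The pubertal levels were the higher ones, but the log2 ratio of 2.42 on array 1 was 0.29 on array 2, and the infant cultures differed from each other more than the second pair did. With median centring the CDH13 ratios were 3.61 and -0.50, with opposite signs. CDH23, the tip-link cadherin of hair cells, had 145 and 104 in pubertal cultures and 254 and 119.7 in infant cultures, with ratios of -0.81 and -0.21, while a second kept probe gave 0.07 and -0.12. CDH26 had 133 and 87.7 in pubertal cultures and 127 and 158 in infant cultures, and ratios of 0.07 and -0.85.

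Of the desmosomal cadherins, DSC3 was lower in pubertal cultures on both arrays. It had 143 and 188 in pubertal cultures, against 219.6 and 243 in infant cultures, with log2 ratios of -0.61 and -0.37 (mean -0.49 ± 0.24 moderated SE, n = 2). DSC2, the most widely expressed desmocollin, had 476 and 323 in pubertal cultures and 440.0 and 206 in infant cultures, and ratios of 0.11 and 0.65. The stages overlapped, since both cultures of array 1 were above both of array 2. DSG2, its partner in simple epithelia, had 143 and 116 in pubertal cultures and 109.9 and 106 in infant cultures, with ratios of 0.38 and 0.13. The skin genes DSG1, DSG3, DSG4 and DSC1 were not kept.

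Of 22 genes with more than 1 probe, 6 had more than 1 kept probe. The mean log2 ratios of the brighter and the dimmer kept probe were -0.38 and -0.28 for PCDH1, 0.25 and 0.04 for PCDH11Y, -0.51 and -0.02 for CDH23, and 0.12 and 0.35 for CDH22. For PCDHGA7 they were -0.17 and 0.07 and for CDH6 0.17 and -0.11, with opposite signs. Both probes had the same sign on both arrays in none of the 6 genes.

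The partners that link cadherins to the cytoskeleton had no common direction. Of 15 catenins and plaque partners 13 were kept, of which 2 were higher on both arrays (15.4%, against 23.5% of all genes), 2 lower and 9 opposite. CTNNB1 (beta-catenin), which binds classical cadherin tails and also carries Wnt signals, had 27993 and 31519 in pubertal cultures, against 17976 and 21899.6 in infant cultures, with log2 ratios of 0.64 and 0.53. DSP (desmoplakin), the desmosomal link to intermediate filaments, had 7936 and 7203 in pubertal cultures, against 6384 and 4423 in infant cultures, with ratios of 0.31 and 0.70. Both stages were apart for these 2 genes. JUP (plakoglobin), shared by both junction types, had 1799 and 1875 in pubertal cultures, against 2749 and 1966 in infant cultures, with ratios of -0.61 and -0.07. ARVCF, a p120-type catenin, had ratios of -0.16 and -0.61.

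Of 8 listed genes of cadherin turnover and transcription, 6 were on the array and kept. SNAI2 (Slug), a transcriptional repressor of CDH1, had 226 and 265 in pubertal cultures, against 503 and 565 in infant cultures, with log2 ratios of -1.16 and -1.09. It was the gene of the 4 partner lists that was 2-fold apart in 1 direction on both arrays. SNAI1 (Snail), a related repressor, had ratios of 0.64 and 0.27. Among 8 kept genes of other cadherin-repeat proteins, 1 was higher on both arrays, CLSTN1 (0.26 and 0.23), 2 were lower, among them DCHS1 (-0.35 and -0.32), and 5 were opposite.

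Markers of other cell types also differed between the stages. For the marker counts below, the shares over all kept genes were 23.5% higher on both arrays and 21.9% lower on both. Of 11 fibroblast and stroma markers 0 were higher on both arrays and 10 lower, and their summed intensity was 32153 and 46959 in pubertal cultures, against 79911 and 73255 in infant cultures. SNAI2, which such cells express, was lower on both arrays too. With the loess fit CDH11, which they also express, was lower on array 1 (-1.14) and near even on array 2 (-0.02). Of 9 germ cell markers 8 were higher and 0 lower, with summed intensities of 4656 and 4788 in pubertal cultures, against 2506 and 4236 in infant cultures. These sums rest largely on UCHL1, the marker of opposite sign, which had 2171 and 2714 in pubertal and 1436 and 3181 in infant cultures. DAZL, which binds RNA in germ cells, had 289 and 323 in pubertal cultures, against 127 and 103 in infant cultures. PCDH17 and the PCDHB genes were higher alongside the germ cell markers, whose median log2 ratios were 1.16 and 0.47. They were also higher alongside some Sertoli markers, such as CST9L (4.85 and 4.58) and CLDN11 (1.45 and 1.28). Of the 13 Sertoli markers 6 were higher on both arrays, 1 was lower and 6 were opposite.

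Of 9 endothelial markers 6 were kept, of which 3 were higher and 1 lower, with summed intensities of 1170 and 1080 in pubertal cultures, against 919 and 958 in infant cultures, while KDR, TEK and TIE1 were not kept. VWF had 175 and 229.9 in pubertal cultures, against 116 and 107 in infant cultures, and CDH5 was near background in all 4. Of 5 kept macrophage markers 3 were higher and 1 lower, with summed intensities of 1555 and 796 in pubertal cultures, against 567 and 785 in infant cultures. Of 5 kept Leydig markers 1 was higher, 1 lower and 3 opposite. Their summed intensities were 98550 and 102434 in pubertal cultures, against 81208 and 72468 in infant cultures. The lower one, CYP17A1, had log2 ratios of -2.12 and -1.45, and the higher one, CYP11A1, had 0.67 and 0.27. Of 6 smooth muscle markers 2 were higher and 2 lower, with 14264 and 36276 in pubertal cultures, against 9904 and 49715 in infant cultures. The sums for smooth muscle separated array 1 from array 2 more than they separated the stages. Of 13 Sertoli markers 6 were higher and 1 lower, with 118823 and 100541 in pubertal cultures, against 85485 and 80964 in infant cultures. The part of any of these cell types in the cadherin-family values was not tested.

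**Figure D4:**
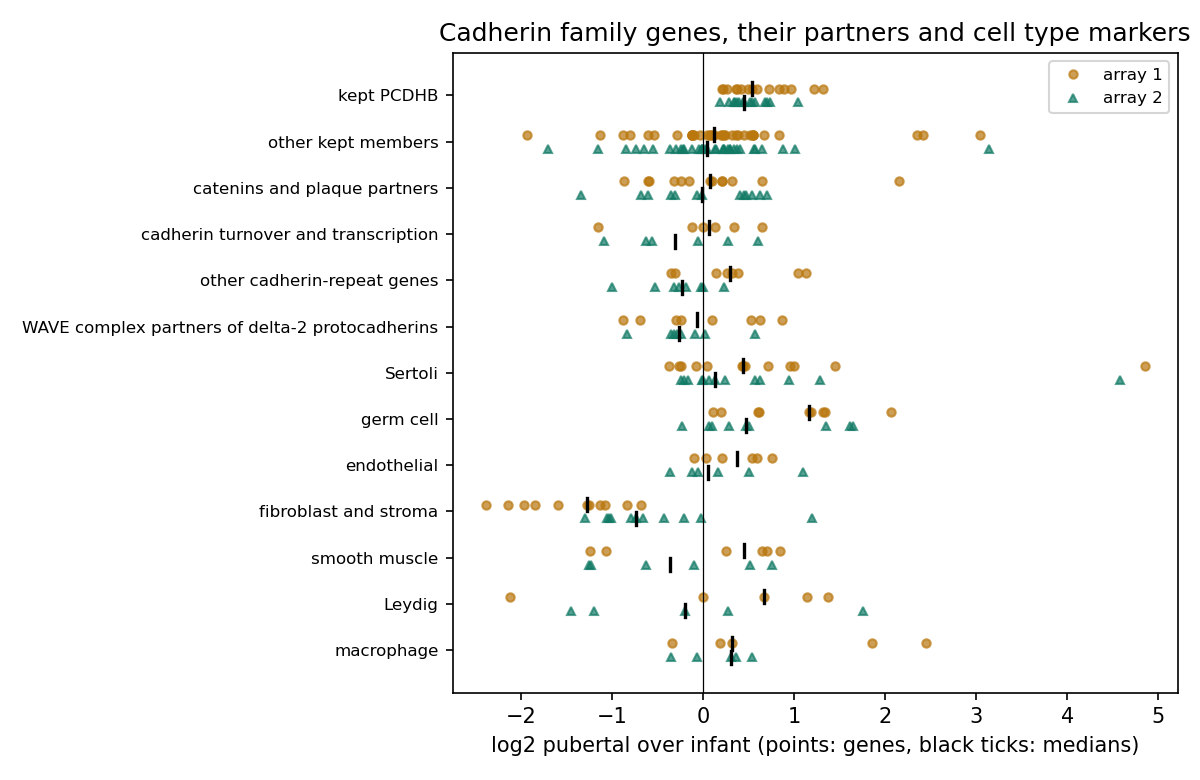
Log2 ratio of pubertal over infant on array 1 (circles) and array 2 (triangles) for each kept PCDHB gene, each other kept cadherin-family gene, and each kept gene of the partner and cell type marker lists, with black ticks at the medians. The PCDHB genes (medians 0.53 and 0.45) and germ cell markers (1.16 and 0.47) lie to the right of 0 and the fibroblast and stroma markers (-1.28 and -0.74) to the left.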

How the data were processed

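Each of the 2 two-colour Agilent arrays set 1 pubertal against 1 infant culture, with the dyes swapped. Per the file headers, the deposited scanner files hold mean spot and median background intensities, not normalized, processed intensities, a log10 ratio of Cy5 over Cy3, and flags. Per the submitters' processing notes, scans were read with Agilent Feature Extraction (version 9.5.1.1). The authors' deposited table lists 4848 probes with log2 ratios. Against the scanner's ratios of pubertal over infant its slopes were 1.006 and 1.003, so its direction and scale were clear, and its column medians were -0.369 and 0.124. How it was centred and normalized is not given in the sources used.

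Intensities were corrected by normexp with offset 50 and loess-normalized within each array in limma 3.58.1 (R 4.3.3). The offset makes ratios of dim probes smaller. Control spots had no weight, spots flagged as outliers were left out, spots of 1 probe were averaged (41000 probes from 43376 spots) and 15232 probes failed the filter. Levels, called normalised intensity, are per channel after loess and Aquantile and hold the offset. The brightest kept probe stood for a gene. By the labels' dyes all ratios were set as pubertal over infant, then fitted with lmFit and eBayes (prior degrees of freedom 3.82) and adjusted over all 19611 genes. The turning of ratios by dye and the averaging of spots and arrays were tested on simulated log ratios. The background correction, loess fit, filter, choice of the brightest probe and p-values were not part of that test. A dye term could not be fitted beside the stage. The numbers of arrays limit the precision.

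The family, the gene and marker lists and the tests were chosen with earlier results of these data known. Genes were named by this rule: PCDH17, genes 2-fold apart on both arrays in 1 or opposite directions, the leading gene of each family group, 6 well known cadherins, and from each partner list the 3 leading genes with CTNNB1, JUP and DSP. All other genes named with values, the PCDHB genes among them, were chosen after their values were seen.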

Additional observations from a re-analysis of the deposited data

How the results depend on the processing

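Each ratio is already paired within its array, so no further replicate block could be fitted. Among kept cadherin-family genes, the count at least 2-fold higher on both arrays (1) was 5 with offset 0, 9 with the scanner's processed signals and 3 to 5 with either array left out. The 5 were PCDH17, CDH18, PCDHB2, PCDHB6 and PCDHB17. The count at least 2-fold lower (0) was 2 with either array left out. The count lower on both arrays (6) was 12 of 86 genes with no filter and 13 to 16 with either array left out. Over all genes, the 67 that were 2-fold higher became 164 with offset 0, 276 with processed signals and 461 to 835 with either array left out. The 69 that were 2-fold lower became 23 with median centring, 130 with offset 0, 218 with processed signals and 465 to 582 with either array left out. The limma count (0 over all genes) was 1 with median centring and 1 with offset 0, and 0 for cadherin-family genes in each of these fits. The cause of these shifts was not tested. Under median centring 10.8% of all genes were higher on both arrays and 9.75% lower. Mean log2 ratios were followed for the cadherin-family genes named by the rule and the kept PCDHB genes. Across the processing alternatives these gave 142 values within 1 SD of the value reported and 43 further away, with 0 of opposite sign. Ratios of single arrays did turn with median centring, as given above for CDH2, CDH13 and some PCDHB genes. With 1 array left out, only the ratio of the other array remains, so each of the 17 kept genes of opposite sign changes sign. Among the genes followed, CDH1 gave -1.16 and 3.04, CDH2 0.34 and -0.88 and CDH3 -1.71 and 0.19 without array 1 and without array 2. Probes not well above background in any infant culture carry only bounds.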
